A study of Mus musculus with 24 samples.

Results

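The replication-dependent histone genes of the mouse lie in a few dense clusters, and 3 intervals of the mm10 genome that hold most of them were examined: distal Hist1 (chromosome 13, 21700000 to 22060000), proximal Hist1 (chromosome 13, 23530000 to 23770000) and Hist2 (chromosome 3, 96200000 to 96280000). The intervals span 360, 240 and 80 kb. Every deposited peak region that overlapped an interval by at least 1 bp was taken, which gave 663 of 1811308 regions over 6 lists. The intervals hold 62 replication-dependent histone genes in the RefSeq annotation of GRCm38.p6, whose chromosomes are those of mm10. There are 23 in distal Hist1, 29 in proximal Hist1 and 10 in Hist2, with 6 genes for H1, 16 for H2A, 16 for H2B, 12 for H3 and 12 for H4. The median gene was 494.5 bp long, and 56 of the 62 genes were shorter than 1 kb. The same intervals also hold 35 tRNA genes, 2 histone pseudogenes and 17 other genes.

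The regions come from chromatin immunoprecipitation and sequencing (ChIP-seq) in E14 mouse embryonic stem cells, an established line, grown in serum with LIF, the cytokine that holds such cells pluripotent. All 6 libraries carry the same genotype, a Nelfb degron (Nelfb deg), in which NELFB carries an HA epitope and can be removed by adding the compound dTAG-13; NELFB belongs to NELF, the negative elongation factor. They are labelled as controls of the dTAG-13 treatment, whose protocol also names DMSO, with 2 libraries for each of 3 targets: NELFB:HA (antibody to the HA tag), NELFE (also in NELF) and SPT5 (the large subunit of DSIF). The other 18 of the 24 samples, dTAG-13 treatments among them, were not analysed here, so the data describe where the factors were and not what follows from their loss.

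Replication-dependent histone genes are short, lack introns and are transcribed in S phase, when new DNA has to be packed into nucleosomes. Their mRNAs end in a stem-loop in place of a poly(A) tail, and the coactivator NPAT gathers the clusters into the histone locus body. NELF and DSIF hold RNA polymerase II shortly after it has started, and NELF, together with the cap-binding complex, is also known for its part in forming histone mRNA 3′ ends. SPT5 stays with the polymerase during elongation, whereas NELF is released from it. The cluster genes are numbered by family, so that H4c4 is a gene for H4, H2ac11 for H2A, H2bc8 for H2B, H3c2 for H3 and H1f3 for the linker histone H1.

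The sequence before the start is printed for single genes of each family and for copies that are alike. A single gene does not stand for its family, and counts by family follow. Each line gives the 150 bases before the RefSeq start on the gene's strand, 5′ to 3′, from RefSeq's GRCm38.p6 table, with motif matches in capitals. For each family 1 gene is shown that had a region of q-value 0.01 or less near its start in all 6 libraries, followed by a pair of H2B copies for which no list held a region.
H4c4 (chr13:23581418-23581567, + strand): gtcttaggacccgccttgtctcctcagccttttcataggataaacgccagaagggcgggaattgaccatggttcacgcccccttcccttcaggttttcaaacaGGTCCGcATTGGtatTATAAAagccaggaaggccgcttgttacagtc
H3c2 (chr13:23752195-23752344, + strand): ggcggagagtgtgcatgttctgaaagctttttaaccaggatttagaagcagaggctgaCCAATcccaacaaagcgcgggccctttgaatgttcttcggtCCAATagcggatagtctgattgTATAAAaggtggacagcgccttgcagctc
H2ac11 (chr13:22042950-22043099, - strand): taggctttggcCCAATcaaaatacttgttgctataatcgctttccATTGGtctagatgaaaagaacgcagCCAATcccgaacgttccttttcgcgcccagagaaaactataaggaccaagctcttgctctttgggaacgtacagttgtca
H2bc8 (chr13:23571250-23571399, + strand): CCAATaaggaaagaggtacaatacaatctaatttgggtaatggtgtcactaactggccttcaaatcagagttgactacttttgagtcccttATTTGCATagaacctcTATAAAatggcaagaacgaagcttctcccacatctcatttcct
H1f3 (chr13:23554882-23555031, + strand): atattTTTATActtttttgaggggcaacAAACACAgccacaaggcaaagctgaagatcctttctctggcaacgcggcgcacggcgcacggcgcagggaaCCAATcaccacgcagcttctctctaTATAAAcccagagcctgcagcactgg
H2bc23 (chr13:21810200-21810349, - strand): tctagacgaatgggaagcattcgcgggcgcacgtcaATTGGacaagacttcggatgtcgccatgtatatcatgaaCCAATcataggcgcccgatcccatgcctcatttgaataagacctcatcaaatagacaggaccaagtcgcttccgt
H4bc24 (chr13:21833593-21833742, + strand): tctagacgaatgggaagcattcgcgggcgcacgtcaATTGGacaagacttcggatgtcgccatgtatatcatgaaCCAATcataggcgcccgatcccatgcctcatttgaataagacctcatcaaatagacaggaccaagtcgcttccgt

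The motifs searched were the TATA box (TATAAA), the CCAAT box (CCAAT), the octamer bound by POU factors (ATTTGCAT), the H1 box (AAACACA) and a core of the element bound by the H4 activator HINFP (GGTCCG), each on both strands. No motif contains another. H4c4 had a GGTCCG 47 bases before its start, and TATAAA began 32 bases before it. Between them, at 40 bases, lay a CCAAT box on the other strand, and H4c4 is thus among the 3 of 11 H4 windows with CCAAT. H1f3 had AAACACA at 122 bases, CCAAT at 51 and TATAAA at 26, and a further TATAAA on the other strand at 145. H2bc8 had CCAAT 150 bases, ATTTGCAT 59 bases and TATAAA 43 bases before its start. H3c2 had CCAAT at 92 and 51 bases and TATAAA at 29. H2ac11 held 3 CCAAT boxes and no TATAAA in the bases shown. The last 2 sequences, of H2bc23 and H4bc24 (an H2B gene despite its symbol, with the older name Hist1h2br), are the same letter for letter.

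Over whole promoter windows, 250 bases before to 50 after the start, the motifs were counted for each family. TATAAA was present in 32 of the 57 histone windows (56.1%) and in 15.7% of all 27025 promoter windows. By family it was in 4 of 6 H1, 10 of 16 H2A, 6 of 14 H2B, 4 of 10 H3 and 8 of 11 H4 windows. CCAAT was present in every H1, H2A, H2B and H3 window (6, 16, 14 and 10), in 3 of 11 H4 windows and in 41.1% of all windows. ATTTGCAT was found in 6 of 14 H2B and 5 of 16 H2A windows, in no H1, H3 or H4 window, and in 1.97% of all windows. In 9 pairs of neighbouring H2A and H2B genes the starts lie 164 to 268 bp apart, so the windows overlap. A match there can be counted for both families, so the H2A and H2B counts are not independent. AAACACA was found in 5 of 6 H1 windows against 8.22% of all, and GGTCCG in 10 of 11 H4 windows against 9.44% of all. A match describes these letters only, and binding of the factors named for them was not measured here.

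**Figure D1:**
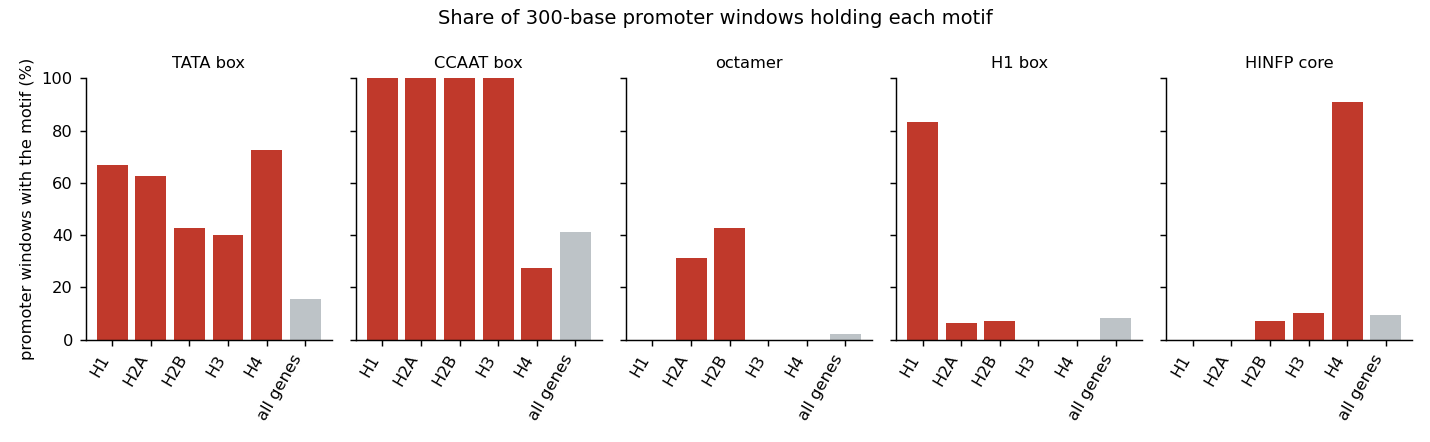
Share of 300-base promoter windows (y axis, percent) that hold each of 5 motifs, for the 5 histone families (red; 6, 16, 14, 10 and 11 windows) and all 27025 genes (grey). The CCAAT bar stands at 100% in every family but H4 (27.3%), and the H4 bar of the HINFP core stands at 90.9%. Windows of neighbouring H2A and H2B genes can overlap, so a match can count for both families.

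Regions whose deposited q-value was at most 0.01 are called strong here. Between 78 and 139 regions of any strength lay in the clusters: 125 and 139 in the NELFB:HA lists, 103 and 89 in the NELFE lists, 129 and 78 in the SPT5 lists. Strong regions made up 25.6% and 21.6% of them for NELFB:HA, 58.3% and 59.6% with NELFE, and 22.5% and 33.3% for SPT5. Over the whole lists the share was 2.97% and 1.85%, 5.52% and 5.42%, and 1.51% and 6.08%. In each of the 6 lists a region in the clusters was thus strong more often than a region of the list as a whole.

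Strong regions covered 20.8% and 22.2% of the clusters in the libraries of NELFB:HA, 23.9% and 26.9% in those of NELFE and 23.1% and 23.5% in the SPT5 libraries. They covered 1.18% to 1.57% of the rest of the genome, whose length was taken from the effective genome size in the headers. By this measure the clusters, taken at full length, were covered 15.0 to 20.3 times as densely. The difference was 22.1 ± 2.02 percentage points (SD, n = 6 libraries) and was positive in 6 of 6 libraries (two-sided exact sign-flip permutation p = 0.031, the smallest this test can give with 6 libraries). This test asks whether the libraries share a direction and does not compare the clusters with other gene-dense loci. It treats the 6 libraries as independent, although they share a line and genotype, come as 2 per antibody, and the SPT5 libraries share an input. Neither the p nor the SD therefore measures spread over independent cultures. Among antibodies, coverage differed by -3.86 points for NELFB:HA minus NELFE, by -1.76 for NELFB:HA minus SPT5 and by 2.104 for NELFE minus SPT5. The library values did not overlap in any of these 3 pairs, but the exact permutation p of 0.3333 is the smallest this test can give with 2 libraries against 2, so by this test no comparison between antibodies could pass a threshold. The NELFE minus SPT5 difference was 0.764 without replicate 2, 3.445 without replicate 1 and 0.336 with the highest 10000 regions of each list. Without regions that lay over tRNA genes alone the NELFE coverage turned from highest to lowest, with differences of 2.89 for NELFB:HA minus NELFE and -4.73 for NELFE minus SPT5. Tags were 100 and 101 bp long in the SPT5 libraries, which used 1 input, and 50 bp in the NELF libraries, each of which had its own. Antibody and batch therefore cannot be told apart wherever SPT5 is compared.

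**Figure D2:**
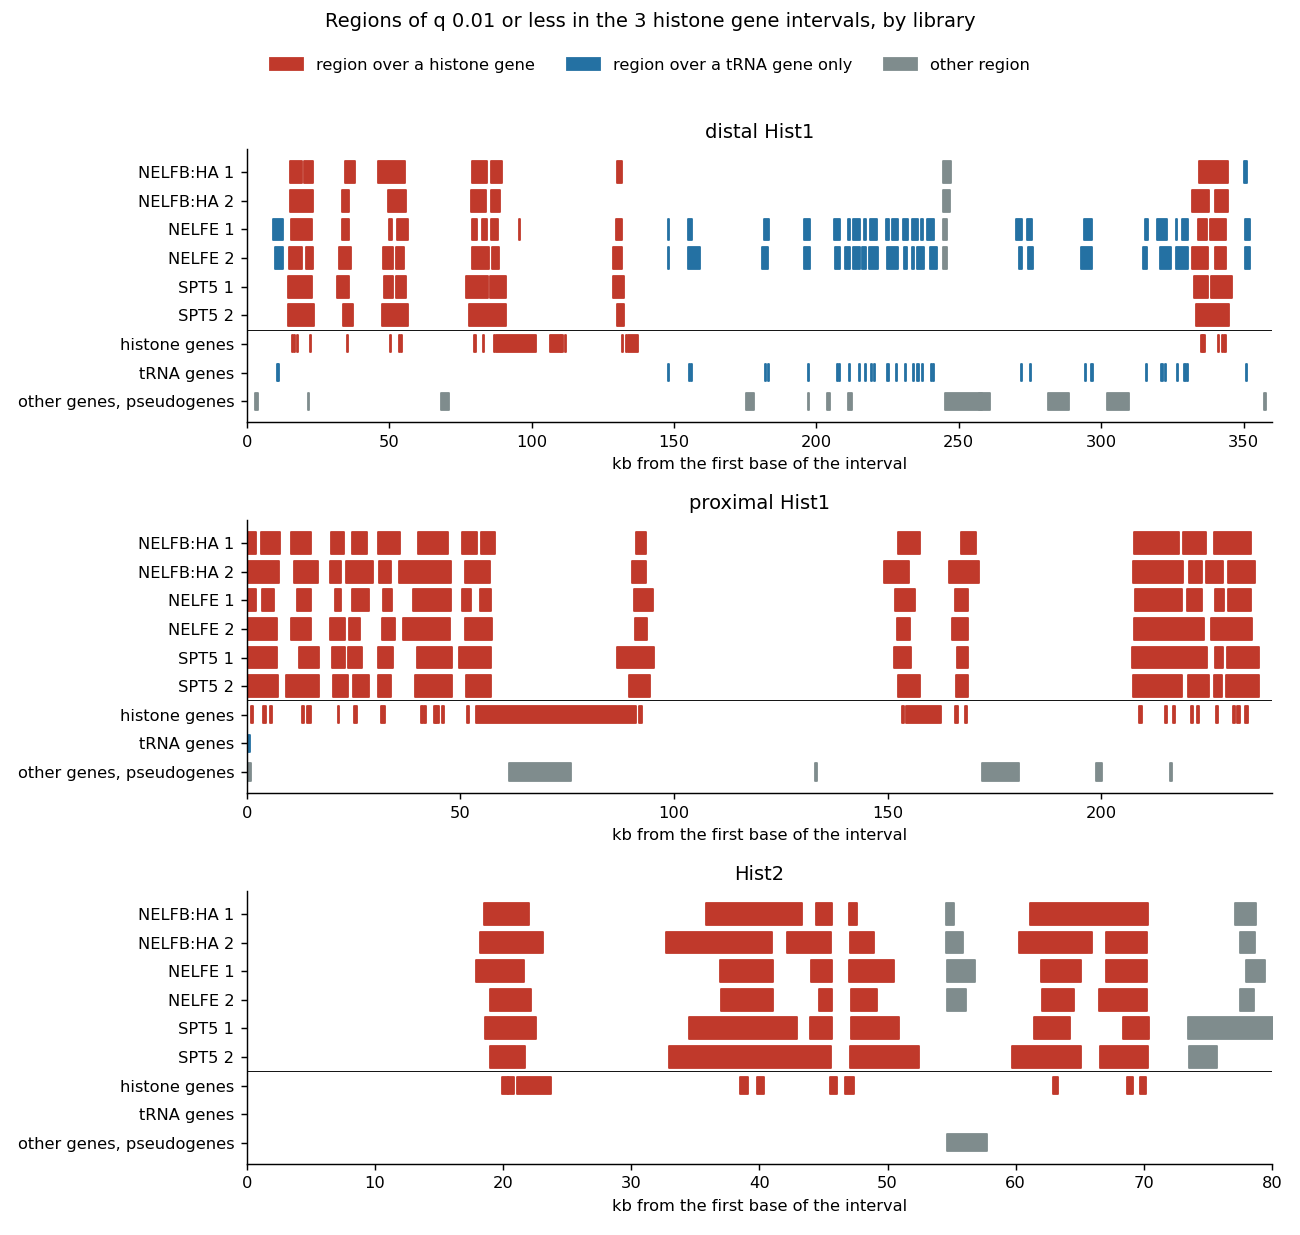
Strong regions (q 0.01 or less) along distal Hist1, proximal Hist1 and Hist2, with 1 row per library and the genes below; the x axis is the distance in kb from the first base of each interval. Regions over histone genes (red) recur in the 6 rows, while those over tRNA genes alone (blue) stand almost entirely in the NELFE rows of distal Hist1.

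The regions sat on the histone genes. A strong region lay within 500 bp of the start of 51 and 51 of the 57 histone genes with a start in the promoter table in the libraries of NELFB:HA, of 52 and 52 in those of NELFE and of 52 and 52 in the SPT5 libraries. Among all 27025 genes the shares were 31.9% and 27.5%, 33% and 33.7%, and 23.8% and 27.2%. In both libraries of an antibody, 50 histone genes (87.7%) were marked by NELFB:HA, 52 (91.2%) by NELFE and 52 by SPT5, against 26.8%, 31.5% and 22.8% of all genes. Together 50 of 57 were marked in all 6 libraries (87.7%, Wilson 95% interval 76.8% to 93.9%), against 21.4% of all genes. The other 7 genes were 5 with no region near the start in any list and 2, H1f6 and H4c18, that missed the threshold in a single NELFB:HA library. By gene span, which also takes in the 5 genes with no start entry (H3c7, H2bc4, H3c1, H2bc21 and H4c14), 55 of 62 were under a strong region in all 6 libraries.

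**Figure D3:**
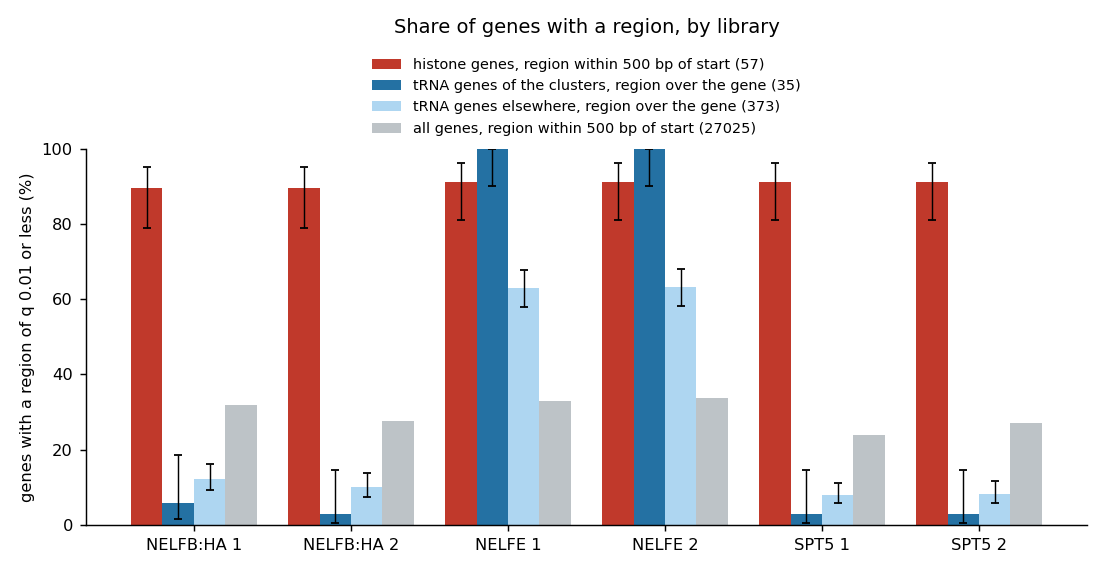
Percent of genes with a strong region in each library (y axis) for 57 histone genes, the 35 tRNA genes of the clusters, 373 tRNA genes elsewhere and all 27025 genes; error bars are Wilson 95% intervals. Histone genes stand at 89.5% or 91.2% in each library, while the tRNA genes of the clusters stand at 100% with NELFE, and at 5.71% or below for NELFB:HA and SPT5.

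By family, the share marked in all 6 libraries was 5 of 6 for H1, 14 of 16 for H2A, 12 of 14 for H2B, 10 of 10 for H3 and 9 of 11 for H4. By interval it was 17 of 23 in distal Hist1, 25 of 26 in proximal Hist1 and 8 of 8 in Hist2. The number of marked genes differed by at most 1 between antibodies (two-sided exact permutation p = 0.3333, 0.3333 and 1 for the 3 pairs).

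The median fold at marked histone genes was also above that of all strong regions. Fold enrichment over input, as deposited for each region, had a median over marked histone genes of 9.03 and 9.31 in the libraries of NELFB:HA, 10.7 and 11.4 in those of NELFE and 7.77 and 7.38 in the SPT5 libraries. The median over all strong regions of the same lists was 4.06 and 3.61, 4.56 and 4.70, and 3.11 and 2.89. Genes that share a region share its value, so the medians over genes hold fewer independent values than genes. With each strong histone region counted once, the medians were 8.80 and 9.12, 10.3 and 10.9, and 7.06 and 7.33 in the same order. The strong regions of the whole lists were not limited to gene starts, so histone genes were not compared here with other promoters. Fold values set against different inputs were not compared between antibodies.

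Several of the highest genes shared a region. Ranked by the mean percentile of their region's −log10 p-value over the 6 lists, the 10 highest were H2ac11, H2bc11, H4c9, H4c2, H1f3, H1f1, H4c1, H2ac13, H2bc13 and H3c10, all at a mean percentile of 99.9 or above. H2ac11, H2bc11 and H4c9 lay under the same region in each library, with folds of 12.95 and 15.9 for NELFB:HA, 11.2 and 13.7 with NELFE, and 8.70 and 7.73 for SPT5. That region was number 11 of the second NELFB:HA list. H2ac13, H2bc13 and H3c10, which encode H2A, H2B and H3, likewise shared a region, with folds of 12.0 and 10.5, 11.8 and 15.6, and 7.77 and 6.85. Both regions thus spanned genes for different core histones, and in some libraries they also reached further histone genes, up to 5 in the first and 4 in the second.

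H1f3, which encodes a linker histone and was the only histone gene in its region, had folds of 14.4 and 9.22 for NELFB:HA, 12.3 and 13.1 with NELFE, and 12.3 and 12.0 for SPT5. Its region was number 3 of the first SPT5 list and number 2 of the second, where it stood above that of every other histone gene. The 2 NELFB:HA folds lay further apart at H1f3 than the 2 of either other antibody, and their regions differed in width, at 3412 and 6230 bp. H1f1, another linker histone gene, had folds of 13.1 and 13.1, 13.3 and 11.7, and 9.97 and 9.39. H4c1 gave the same values, as it lay in the same regions, and H4c2, nearby, had 13.1 and 11.1, 14.3 and 11.7, and 9.62 and 9.10. H4c4, whose promoter is printed above, reached the largest fold of any histone gene, 18.8 in the first NELFE library, where its region was number 8 of the list. In the second NELFE library it had 9.22, over a region of 6217 bp that also held H2bc6, against 2129 bp in the first. The 2 folds are thus of unlike regions, and whether the height at H4c4 itself repeated was not tested.

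**Figure D4:**
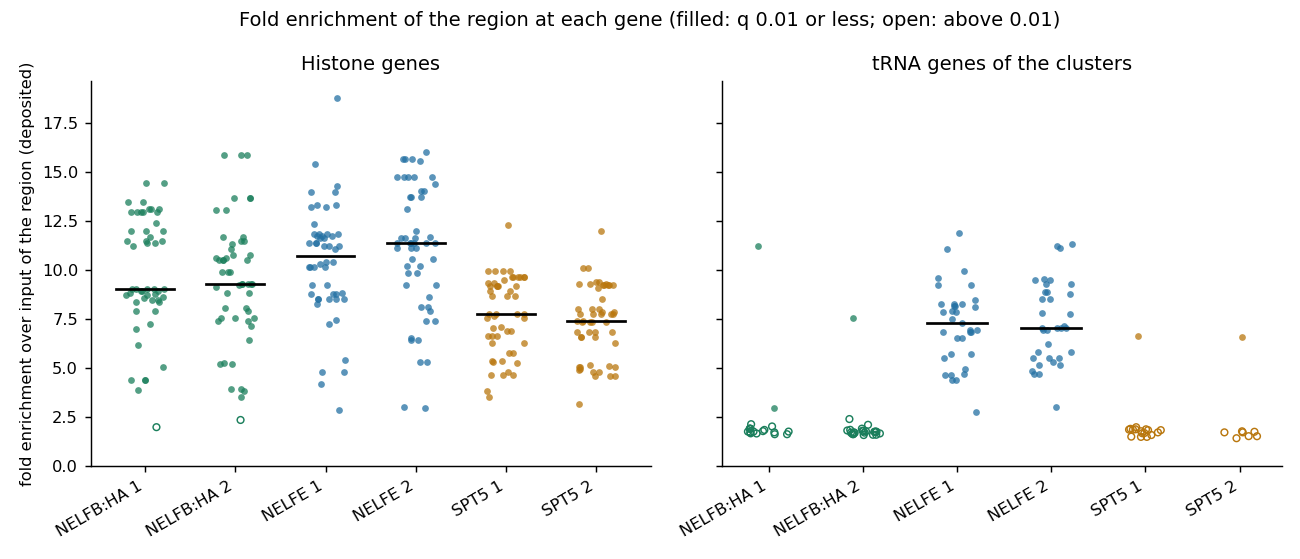
Deposited fold enrichment over input (y axis, linear) of the region at each histone gene (left) and each tRNA gene of the clusters (right) in the 6 libraries; filled points are strong, open points are not, bars mark medians of 5 or more strong points. Histone medians lie between 7.38 and 11.4 in all libraries, and the tRNA genes reach a comparable range in the NELFE libraries alone, apart from n-TMcat9, with medians of 7.29 and 7.05.

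Hist2 genes had lower folds. Over the 8 Hist2 genes with a start, the median fold was 8.35 and 4.56 for NELFB:HA, 8.76 and 6.41 with NELFE, and 4.99 and 4.70 for SPT5, against 11.2 and 9.31, 10.3 and 11.4, and 9.17 and 9.18 over proximal Hist1. In each library the Hist2 median was below that of proximal Hist1. However, H3c14, H3c15, H2ac18 and H2ac19 hold long promoter runs in common, described below, so their values and the Hist2 medians are uncertain. Whether the lower medians rest on these copies was not tested. Outside this group, H2ac20 and H2ac21 shared a region with folds of 8.35 and 5.20, 9.25 and 6.41, and 4.62 and 4.79. H3c13 and H2bc18, which lie in the same Hist2 regions, stood higher, with 8.47 and 10.8, 13.98 and 10.2, and 9.95 and 8.0. By mean percentile, the lowest of the genes marked in all 6 libraries was H3c14, at 4.399 and 3.53, 2.88 and 2.94, and 3.51 and 3.18. Its neighbours H3c15 and H2ac19 shared a value of 4.396 and 3.92, 4.78 and 5.32, and 5.37 and 4.61.

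H1f6 encodes H1t, the testis linker histone. Its fold was 1.98 in the first NELFB:HA library, below the threshold, and 7.40 in the second, then 10.4 and 8.09 with NELFE, and 8.92 and 7.88 for SPT5. In 5 of the 6 libraries it shared its region with H4c3, an H4 gene marked in all 6, which had a fold of 11.7 in the library where H1f6 missed. H4c18 had folds of 3.89 and 2.35 for NELFB:HA, 4.17 and 3.005 with NELFE, and 5.30 and 5.15 for SPT5, and only the 2.35 missed the threshold.

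The 5 genes with no region, H2ac23, H2ac24, H2bc23, H4bc24 and H4c17, lay in 2 stretches of distal Hist1 where none of the 6 lists held a region of any strength. The first, 24457 bp long (chromosome 13, 21796207 to 21820663), held H2bc23, H2ac23 and H4c17. The second, 14977 bp long (21832323 to 21847299), held H2ac24 and H4bc24. H4c18 lies just before the second stretch. These genes were also among those whose promoters hold long runs in common. H2bc23 and H4bc24 shared all 300 bases of the window, H4c17 and H4c18 shared a run of 285, H2ac23 shared 267 with the window of H4bc24, and H2ac24 shared 233 with that of H2bc23.

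The following counts leave out the overlap of neighbouring windows on the genome, as at the facing H2A and H2B genes below. Between windows at separate places, 10 histone windows shared a run of 100 bases or more with another (219 to 300). Of these genes, 4 were marked in all 6 libraries and 5 in none. The other 47 windows shared at most 72 bases with a window elsewhere (median 15), and 46 of these genes were marked in all 6 libraries and 0 in none. The 4 marked copies were H3c14, H3c15, H2ac18 and H2ac19, which form a mirror-image group of H2A and H3 genes in Hist2. Between H2ac18 and H3c14 the lists also left a gap of 1300 bp (chromosome 3, 96245677 to 96246976) with no region of any strength. Reads from identical copies cannot be assigned to one of them. How such reads were treated is not given in the sources used here, and whether this set the gaps was not tested. For these 10 genes the values are therefore uncertain, and a missing region is not a measured absence of the factors.

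H2A and H2B genes often face away from each other across a short shared promoter. There were 9 such pairs, with starts 164 to 268 bp apart (median 180), and both genes were marked in all 6 libraries in 7. The other 2 pairs were H2bc23 with H2ac23 and H2ac24 with H4bc24, within the gaps. Because the starts lie closer together than the regions are wide, the data do not say from which of the 2 genes of a pair the signal came.

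The regions were wide. Strong regions over histone genes had a median width of 3885.5 and 5644 bp for NELFB:HA, 3086 and 3751.5 bp with NELFE, and 4169.5 and 5343 bp for SPT5. All strong regions of these lists had median widths of 2006 and 2323 bp, 1689.5 and 1830 bp, and 2900 and 2191 bp. The widest in the clusters, of 17433 bp in the first SPT5 list, lay over H1f2, H2bc3 and their neighbours in proximal Hist1. Of 25 to 33 such regions per library, 16 to 19 lay over at least 2 histone genes and none over more than 5. Width over all strong cluster regions differed by 1857.5 bp between NELFB:HA and NELFE (two-sided exact permutation p = 0.3333, adjusted 0.5 over 3 pairs), by -333 bp between NELFB:HA and SPT5 (p = 0.667 by the same exact test; -51 bp without replicate 1 and -615 bp without replicate 2), and by -2190.5 bp between NELFE and SPT5 (exact p = 0.3333). With histone regions only, the NELFB:HA and SPT5 medians differed by 8.5 bp, while NELFE had the lower value still.

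Most genes were covered from end to end. Of the 51 or 52 marked genes per library, 45 to 47 lay wholly inside their region and 48 or 49 had their start base inside it. For 5 genes, H4c11, H4c6, H1f3, H3c6 and H3c14, the region held no other histone gene in any library, so its edges can be read against that gene. These genes were picked out after their values were seen. The region ran past the 3′ end of the gene in 28 of 30 cases. H1f3 is 776 bp long, and its regions began 275 to 1834 bp before the start and ended 726 to 3619 bp past the gene's end. H4c6, of 383 bp, was covered from 407 to 1982 bp before its start to 664 to 1810 bp past its end. H4c11, of 423 bp, was covered to 290 to 2459 bp past its end.

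H3c6, of 911 bp, was the exception. Both NELFE regions stopped inside it, 563 and 630 bp after its start, whereas the NELFB:HA regions ran 794 and 545 bp and the SPT5 regions 767 and 666 bp past its end. NELFE ended earlier than SPT5 there in both libraries, which rests on 1 gene and has no test. At H3c14 every region began after the start, by 292 to 441 bp, right at the 3′ side of the gap described above. Tags were extended to 227 bp for the NELF lists and to 206 bp for the SPT5 lists and weak regions were joined in broad mode, so an edge is not resolved to single bases. Occupancy at the start and at the 3′ end of such short genes cannot be separated from these region lists.

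**Figure D5:**
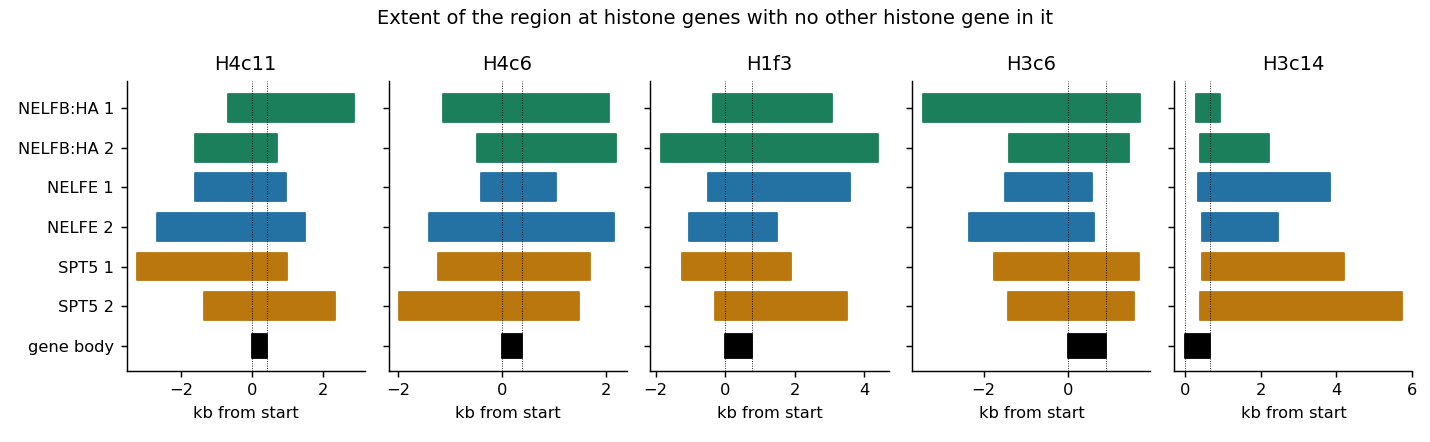
Extent of the strong region in each of the 6 libraries (coloured bars) around the start (0, x axis in kb, gene drawn left to right) of 5 histone genes with no other histone gene in their region; the black bar is the gene. The bars pass the gene's 3′ end in 28 of 30 cases, all but the 2 NELFE bars of H3c6.

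In the strongest part of each list, SPT5 placed the histone clusters highest. Of the 100 regions with the highest −log10 p-value, 16 and 15 lay in the clusters in the SPT5 lists, 4 and 4 in the NELFB:HA lists and 1 and 0 in the NELFE lists. The clusters make up 0.0364% of the effective genome size in the headers. The difference was -11.5 regions for NELFB:HA minus SPT5, -15 for NELFE minus SPT5 and 3.5 for NELFB:HA minus NELFE, and the library values did not overlap in any pair (two-sided exact permutation p = 0.3333 each, the smallest this test can give). Ranking by fold gave -8.5, -13.5 and 5. Among the highest 1000 the counts came closer, at 19 and 20, 22 and 16, and 25 and 23. The best-ranked cluster region was number 43 and 11 for NELFB:HA, 8 and 110 with NELFE, and 3 and 2 for SPT5. The lists differ in depth, tag length and total length, so these ranks place the clusters within each list and do not show that more SPT5 than NELF was present. The ranked p-values are also means over each region, and widths differ between regions and lists. Whether region width shaped the ranks was not tested.

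Among the highest 10000 the order turned, with 56 and 51 cluster regions for NELFE against 32 and 32 for NELFB:HA and 31 and 30 for SPT5. The number of strong regions did the same, at 60 and 53 against 32 and 30 and 29 and 26. The difference was -25.5 for NELFB:HA minus NELFE and 29 for NELFE minus SPT5, with no overlap between libraries (two-sided exact permutation p = 0.3333). Regions over tRNA genes made up most of it. Over histone genes the NELFE lists had 33 and 28 strong regions, the NELFB:HA lists 28 and 27 and the SPT5 lists 28 and 25. Over tRNA genes alone they had 24 and 22, 1 and 0, and 0 and 0.

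tRNA genes are transcribed by RNA polymerase III from promoters inside the gene, and a large group of them lies among the histone genes of distal Hist1. All 35 tRNA genes of the clusters, 34 of them in distal Hist1, were under a strong NELFE region in both libraries. Of all 408 annotated tRNA genes, 66.2% and 66.4% were in the 2 libraries and 65.9% in both. NELFB:HA marked 2 and 1 of the 35, against 11.8% and 9.56% of all tRNA genes, and 1 in both libraries (7.6% of all). SPT5 marked 1 and 1, against 7.6% and 7.84%, the same gene in both (7.11% of all). The differences were -33.5 genes for NELFB:HA minus NELFE and 34 for NELFE minus SPT5, with no overlap (two-sided exact permutation p = 0.3333, adjusted 0.5, over 3 pairs).

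The NELFE folds at the 35 genes had a median of 7.29 (range 2.76 to 11.9) in the first library and 7.05 (3.02 to 11.3) in the second. n-TSaga1, a serine tRNA gene, was highest in the first library, with 11.9 and 8.86. n-TVaac3, a valine tRNA gene, was highest in the second, with 8.11 and 11.3. The lowest in both was n-TKttt22, a lysine tRNA gene, with 2.76 and 3.02. Where the other 4 libraries had any region at these genes it was weak: of 18, 24, 17 and 8 genes with a region, all but 2, 1, 1 and 1 missed the threshold. At n-TSaga1 the NELFB:HA folds were 1.72 and 1.65, the first SPT5 fold was 1.58, and the second SPT5 list held no region there. The NELFE values at tRNA genes thus overlapped the range seen at marked histone genes, and those of NELFB:HA and SPT5 at the same genes did not, apart from 1 gene.

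That gene was n-TMcat9, a methionine tRNA gene 625 bp from the H4 gene H4c8. It was under the region of H4c8 in all 6 libraries, with folds of 11.2 and 7.57, 11.1 and 11.1, and 6.62 and 6.58. n-TSgct5, a serine tRNA gene, passed in the first NELFB:HA library with a fold of 2.94 and missed in the second with 1.69. The tRNA genes lay 625 to 97967 bp from the nearest histone gene (median 59408), and 32 of 35 lay more than 5000 bp away. Most of the NELFE regions over them were therefore far from any histone gene.

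NELFB and NELFE are subunits of 1 complex, and at the histone genes their calls were nearly the same, which the tRNA genes did not share. In all, 33 of the 35 tRNA genes of the clusters (94.3%, Wilson interval 81.4% to 98.4%) were marked in both NELFE libraries and in no other library. Across all tRNA genes this held for 212 of 408 (52%), and outside the clusters for 179 of 373 (48.0%). The pattern was therefore common at tRNA genes elsewhere too. What sets the NELFE libraries apart at these genes was not tested. No library from cells without NELFE was analysed here, so the specificity of the NELFE antibody at tRNA genes was not tested, and these counts and folds are of NELFE antibody signal.

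Merged over the 6 libraries, the strong regions of the clusters formed 44 stretches. Of these, 20 lay over histone genes, 18 of them strong in all 6 libraries. Another 21 lay over tRNA genes alone, and 20 of these were strong in both NELFE libraries and in no other. The remaining 3 lay over neither.

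The non-histone genes of the intervals were mostly without a strong region, as were most of all genes in each library. Among all 27025 genes, 23.8% to 33.7% by library had a strong region within 500 bp of a start. Of the 17 non-histone genes, 13 had no strong region within 500 bp of the start, or over the gene where no start was listed, in any library. The highest fold of these 13 was 1.99. They include Hfe, which encodes a regulator of iron uptake, Prss16, a thymus serine protease, and the olfactory receptor gene Olfr1359. Gm20627, also among the 13, had a strong region within its span but not near its start in the 4 NELF libraries, with folds of 2.95 and 2.65 for NELFB:HA and 2.55 and 3.23 for NELFE. Zfp184, a zinc finger gene, had folds of 3.59 and 3.96 for NELFB:HA and 4.71 and 7.76 for NELFE, all strong, and 2.30 and 2.09 for SPT5, neither strong. That region was thus strong in 4 of 4 NELF libraries and 0 of 2 SPT5 libraries, and the difference was not tested. Mir1983 and Gm40831 were marked by NELFE alone, with 9.57 and 7.13 and with 8.49 and 7.81. Both lie at tRNA genes and under the regions of those genes. Gm11335 was marked in all 6 libraries through the region of H4c8. The histone pseudogenes H2ac14 and H2ac5-ps lay under regions shared with intact histone genes in all 6 libraries.

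Histone genes outside the clusters gave a comparison. The list holds replacement variants, which are made outside S phase too, and solitary genes such as H2aw and H2bu2, which are of the replication-dependent kind. Of 13 with a start entry out of 16 listed, 11 were marked in both NELFB:HA libraries, 11 in both NELFE libraries and 10 in both SPT5 libraries, against 26.8%, 31.5% and 22.8% of all genes. H3f3b, which encodes a replacement H3 found at active genes, had folds of 19.3 and 10.9 for NELFB:HA, 13.9 and 13.1 with NELFE, and 4.76 and 4.84 for SPT5. Its region was number 2 and 9 of the NELFB:HA lists and number 336 and 327 of the SPT5 lists, whereas that of H1f3 was number 47 and 114 and number 3 and 2. H3f3b thus stood above H1f3 in the NELFB:HA lists and below it in the SPT5 lists, in both libraries each. These ranks are of regions of unlike width. The H3f3b regions spanned 1251 and 3222 bp for NELFB:HA and 7479 and 8617 bp for SPT5. Those of H1f3 spanned 3412 and 6230 bp and 3141 and 3792 bp. H2az1, which encodes an H2A variant, had 7.62 and 5.46, 11.95 and 5.97, and 6.11 and 4.97. Macroh2a2 and H2bfm had no strong region in any library.

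Of the genes that make and process histone mRNA, 20 of 27 had a start entry, and 17 were marked in both NELFB:HA libraries, 19 in both NELFE libraries and 15 in both SPT5 libraries, beside the same shares of all genes. Npat, the coactivator of the clusters, had folds of 4.70 and 3.41, 5.11 and 6.71, and 3.88 and 2.57. Slbp, which encodes the stem-loop binding protein, had 7.80 and 4.99, 8.59 and 13.5, and 4.61 and 5.40. Casp8ap2, which encodes FLASH of the 3′ end machinery, had 10.5 and 5.84, 5.12 and 6.83, and 3.86 and 3.47. Ncbp1, for the larger cap-binding subunit, had 9.38 and 4.37, 5.72 and 9.71, and 5.92 and 6.09. All 4 were strong in each of the 6 libraries. Zfp473, whose product binds the U7 snRNP, was strong in 1 of the 6 libraries, with a fold of 3.70 in the second NELFE library.

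As a check of the labelled cells, 5 of 7 embryonic stem cell marker genes with a start entry were marked in both libraries of each antibody (Klf4, Pou5f1, Sox2, Tdgf1 and Zfp42). Of the fibroblast genes with a start entry 0 of 3 were, against 21.4% of all genes. At that share 0 of 3 says little about other cell types. Dppa5a of the first list and Col1a1 and Thy1 of the second had no start entry. Nanog was strong in 2 of the 6 libraries, Esrrb in none and the fibroblast gene Vim in 1. Libraries held 27324697 to 62312558 filtered tags and the lists 137102 to 462153 regions, of which 6978 to 11770 were strong. No region was identical in the 2 lists of an antibody. Nothing in the labels says that the 2 libraries of an antibody came from separate cultures, so the spread between them may be technical.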

How the data were processed

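The 6 control libraries were analysed from their deposited region lists, and the other 18 samples were left out. Per the file headers, the authors called regions with MACS 2.1.1.20160309 in broad mode on single libraries against an input, with p cutoffs of 0.01 for strong and 0.1 for linking regions and 1 tag kept per position. The submitters' processing notes name mm10, Bowtie2, deepTools and MACS2. How reads with several matches were treated is not given in the sources used here.

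The deposited pileup signal is the mean coverage of a region. The deposited fold enrichment is a ratio over local input. The −log10 p-value of a region, and likewise its −log10 q-value, were deposited as region means. The headers say that q was not calculated, yet the column holds values of 0 and above, which were used as q. Filtered tags numbered 41312333 and 29656999 for NELFB:HA, 40260648 and 28944909 with NELFE, 27324697 and 62312558 for SPT5. The headers name 5 inputs and number the NELF libraries differently from the titles, and libraries follow the titles.

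Regions were matched to RefSeq genes of GRCm38.p6 with an overlap of at least 1 bp or a window of 500 bp around the start, in Python 3.11.15 with pandas 2.3.3, and the steps were tested on simulated data. Of 62 histone genes, 57 had a start entry. tRNA genes were matched over their span, as the promoter table holds no start for them. Comparisons between antibodies used two-sided exact permutation tests of 2 libraries against 2, adjusted over 3 pairs by Benjamini-Hochberg. Wilson intervals are at 95% and cover counting error only.

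Named are the 10 highest and 5 lowest histone genes by mean percentile of −log10 p-value, genes on which antibodies differed, and non-histone genes marked in both libraries of an antibody. The tRNA genes that met this rule are given by their range. Histone genes named beyond this rule, the genes named from the lists of variant, pathway and marker genes, the tRNA comparison, the highest 100 regions, shared promoter runs, gaps, motifs and printed sequences were chosen after their values were seen. The members and lists were chosen with earlier results of these data known. Alternatives were other q thresholds, windows, numbers of top regions, interval limits and single libraries left out.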

Additional observations from a re-analysis of the deposited data

How the results depend on the processing

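Of 185 recomputed values over 25 results, 161 kept their direction and side of the threshold. This count includes the values with a replicate block, which could not change. In comparisons between antibodies no p could pass a threshold, so only the difference itself could change there. The count is therefore not a measure of how robust the results are. With all deposited regions, coverage differed by 9.26 points for NELFB:HA minus NELFE, 5.51 for NELFB:HA minus SPT5 and -3.75 for NELFE minus SPT5. The number of regions then differed by 36 (NELFB:HA minus NELFE) and -7.5 (NELFE minus SPT5), the median width by -596.5, 67.8 and 664.2 bp in the same order of pairs as coverage, and the histone gene count by 0 for NELFB:HA minus NELFE and 0 for NELFB:HA minus SPT5. The cause was not tested. The histone gene count differed by 0.5 (NELFB:HA minus NELFE) and -1.5 (NELFE minus SPT5) at a q-value of 1e-05, by 0.5 and -1 with the highest 10000 regions, by 0 and -0.5 with the start base inside, and by -0.5 (NELFE minus SPT5) in a 250 bp window. The tRNA gene count for NELFB:HA minus SPT5 fell to 0 at 1e-05. With histone regions only, the width of NELFB:HA minus SPT5 was 8.5 bp. Without tRNA regions, coverage differed by 2.89 (NELFB:HA minus NELFE) and -4.73 (NELFE minus SPT5). These 2 alternatives were added after the data were seen. The excess of cluster coverage over the genome was 21.3 to 22.8 points without a replicate (exact permutation p = 0.25, the smallest this test can give with 3 libraries). Leaving out a replicate turned no direction, but coverage for NELFE minus SPT5 ranged from 0.764 to 3.445 points and width for NELFB:HA minus SPT5 from -615 to -51 bp, and the tRNA count for NELFB:HA minus SPT5 ranged from 0 to 1. Replicate numbers did not pair the libraries (r of deviations over 33 regions 0.114, 0.117 and -0.155). With a replicate block the differences are the same by construction, for example -25.5 ± 3.54 strong regions (SD) for NELFB:HA minus NELFE. With 2 libraries per antibody the exact permutation test used here cannot give a p below 0.3333, and depth and list length differ between replicates.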
